A study of Mus musculus with 4 samples.

Results

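The 9 genes described here are markers of macrophages: Csf1r, Adgre1, Cd68, Mrc1, C1qa, C1qb, C1qc, Cd163 and Marco. They were chosen by name as a set of genes used to recognise the lineage, and all 9 of them were found among the 19938 genes with a value. Expression was measured with Affymetrix mouse gene arrays in stromal cells of C57BL/6 bone marrow that were positive for a green fluorescent protein driven by the nestin promoter and negative for CD45, CD31 and Ter119. The recipients were Nes-gfp mice, and the cells were taken 10 weeks after transplantation. In the MPN group (myeloproliferative neoplasm, n = 3) the transplanted marrow cells were Mx1-cre;JAK2-V617F, which carry the JAK2 mutant and a Cre recombinase under the inducible Mx1 promoter, and the labels list the array genotype as Nes-gfp;Mx1-cre;JAK2-V617F. The control (n = 1) had received control marrow cells and is labelled Nes-gfp, with no genotype given for those cells. Each array is named as a mouse, and the sources used here do not give the ages of the mice.

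Macrophages are tissue phagocytes that depend on signalling through Csf1r, the receptor for the growth factors Csf1 and Il34. In marrow they clear dying cells and expelled red cell nuclei and stand in contact with the stromal cells of the stem cell niche. They carry CD45 on their surface, so a sort for CD45-negative cells is set to leave them out. The question put to these arrays is whether RNA of macrophages was present in the sorted stromal cells, and whether its level differed with MPN marrow.

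No macrophage marker gene passed the test of a difference between the groups, and all but Cd68 lay near background. Of the 9, 1 (Cd68) lay above the background limit on every array, 4 (Csf1r, C1qa, C1qb and C1qc) on some arrays, and 4 (Adgre1, Mrc1, Cd163 and Marco) on no array. The limit is a deposited log2 value of 5.21, the 95th percentile of the mean level of 1190 genes for odorant and pheromone receptors (olfactory and vomeronasal), taken as not expressed in marrow. Taken on each array alone, the limit differed between arrays and was 5.45 on that of MPN mouse 2. There C1qb was at 5.44 and C1qc at 5.37, their only values above 5.21. Against each array's own limit these genes were above on no array, and the counts for Csf1r, C1qa and Cd68 were unchanged. For C1qa the arrays behind the count differed. Against its own limit the control array (5.12) was above, and that of MPN mouse 1 (5.33) was not. The median log2 difference between the MPN mean and the control was 0.28 over the 9 genes. It was 0.18 over all genes and 0.26 over the receptor genes, close to the value of the markers. Beside this, Ptprc, which encodes CD45, had values of 10.16, 9.46 and 10.40 with MPN marrow and 7.07 in the control. The 17 marrow stromal genes listed had mean levels of 5.55 to 6.04 with MPN marrow against 9.32 in the control. What part leukocyte RNA had in any value below was not tested. In sorted bulk samples, fewer cells of a type and less RNA per cell cannot be told apart.

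By limma with Benjamini-Hochberg adjustment at 0.05, 0 of the 9 genes and 0% of all genes passed. At an unadjusted p under 0.05, 0 of the 9 were higher and 0 lower in MPN, while over all genes 3.97% were higher and 8.63% lower. On each MPN array at once, 0 of the 9 were at least 2-fold higher than the control and 0 at least 2-fold lower, beside 1.13% and 5.78% of all genes. All 3 MPN arrays lay above the control for 5 of the 9 (Adgre1, C1qb, C1qc, Mrc1 and Marco), which is 55.6%, and below it for 0. These shares were 46.8% and 21.1% over all genes, and 61.6% and 7.84% over the 7974 genes at or under the limit in both groups. The markers' share above the control lies between those of all genes and of low genes. It rests on the scaling, since 1 of the 9 lay above the control on all arrays after cyclic loess and 1 after the arrays were aligned on the receptor genes. With 1 control an exact two-sided permutation test of a single gene cannot give a p below 0.25, and limma takes the spread from the MPN mice alone.

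**Figure D1:**
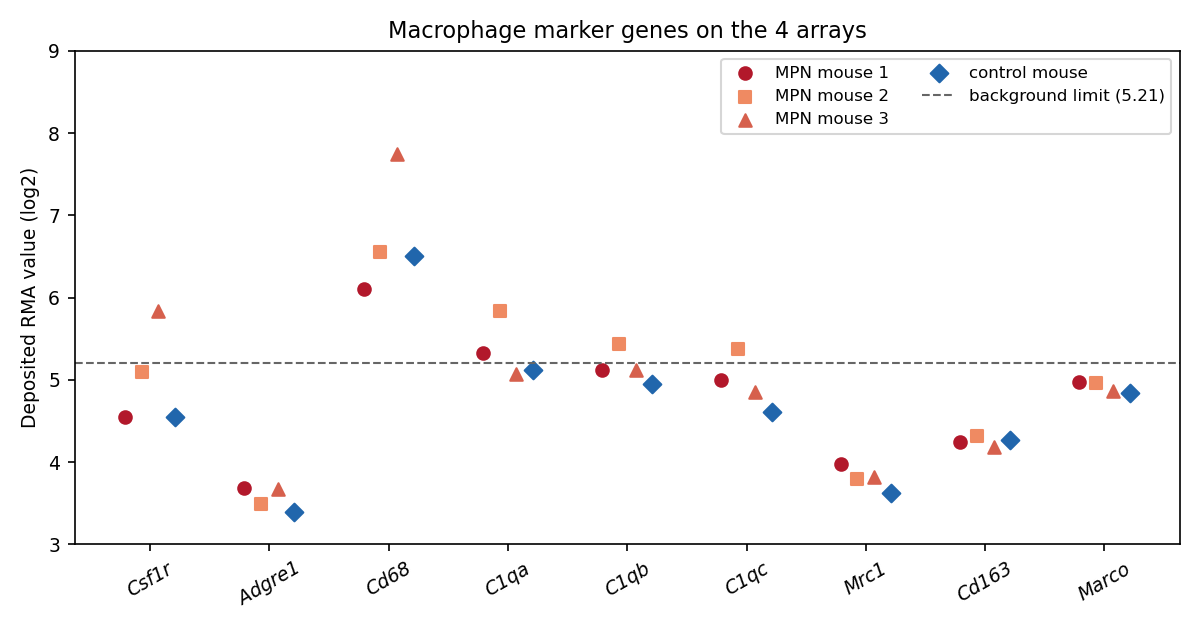
Deposited RMA value (log2, y axis) of each of the 9 macrophage marker genes (x axis) on the 3 MPN arrays and the control array, 1 point per array, with the background limit of 5.21 as a dashed line. Cd68 lies above the line on all 4 arrays, and Csf1r and Cd68 are highest on the array of MPN mouse 3.

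Csf1r, the growth factor receptor, was at 4.55, 5.10 and 5.84 on the arrays of MPN mice 1, 2 and 3 and at 4.55 on the control array. MPN mouse 1 and the control held the same deposited value, and only MPN mouse 3 was above the limit. The log2 difference was 0.61 (SE 0.59, 95% interval -1.15 to 2.37, limma adjusted p = 0.626, n = 3 against 1), the largest among the 9. It came to 0.27 without MPN mouse 3 and to 0.92 without MPN mouse 1. Equal values on at least 2 arrays were found for 2526 genes (12.7%), so the tie is not particular to Csf1r. Such ties are uncommon in RMA values, and where they come from was not tested.

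Cd68, a glycoprotein of lysosome membranes also called macrosialin, was at 6.11, 6.56 and 7.75 with MPN marrow and at 6.51 in the control. The control lay within the range of the MPN mice, with MPN mouse 1 below it and MPN mouse 3 above it by 1.24. The mean difference was 0.30 (SE 0.76, 95% interval -1.98 to 2.58, limma adjusted p = 0.85), and without MPN mouse 3 it was -0.17. With the arrays aligned on the receptor genes the Cd68 difference was 0.04. Adgre1, the F4/80 surface receptor that defines mouse macrophages in flow cytometry, stayed between 3.40 (control) and 3.69 (MPN mouse 1). Its difference of 0.21 (SE 0.18) had a 95% interval of -0.31 to 0.74. Under the same alignment it was -0.04, so its direction depends on the scaling.

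Csf1r and Cd68 were the only members whose 4 values spanned at least 1 log2 unit, at 1.29 and 1.63. The genes with the most similar pattern to Csf1r, among 11964 genes above the limit in either group, were Cntrl, Psmd8 and Asxl1, with root mean square distances of 0.0426, 0.0549 and 0.0564 log2 units after centring. For Cd68, among 11963 genes, they were Topbp1 (0.0589), Rnf130 (0.0783) and Atp5mpl (0.0805). These distances rest on 4 arrays and describe likeness only.

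C1qa, C1qb and C1qc encode the 3 chains of C1q, the recognition protein of the classical complement pathway, and macrophages are a main source of it. In the RefSeq gene order the genes lie side by side as C1qb, C1qc and C1qa. C1qa had MPN values of 5.33, 5.84 and 5.07 against 5.12, C1qb of 5.12, 5.44 and 5.12 against 4.95, and C1qc of 5.0, 5.37 and 4.85 against 4.61. All 3 were highest on the array of MPN mouse 2, whereas Csf1r and Cd68 were highest on that of MPN mouse 3. The control array was lowest for C1qb and C1qc, and for C1qa it lay between the MPN arrays. The log2 differences were 0.30 (SE 0.38) for C1qa, 0.28 (SE 0.22) for C1qb and 0.46 (SE 0.28) for C1qc, with limma adjusted p of 0.703, 0.562 and 0.492. Without MPN mouse 2 they were 0.08, 0.17 and 0.31. After cyclic loess they were 0.12, 0.09 and 0.26, and with the arrays aligned on the receptor genes 0.04, 0.02 and 0.20. The upper ends of the 95% intervals were 1.42, 0.93 and 1.29.

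The promoters of Cd68, which was above background throughout, and of C1qb and C1qc, which were highest on the array of MPN mouse 2 and lowest on the control array, are shown for the motif GAGGAA, the core bound by PU.1, the lineage factor of macrophages encoded by Spi1. The sequences are the 250 bases before the start site from RefSeq on GRCm38.p6, all on the minus strand, at chr11:69666171-69666420, chr4:136886201-136886450 and chr4:136892915-136893164. They run 5′ to 3′ along the gene, and capitals mark the motif or its reverse complement TTCCTC.
Cd68: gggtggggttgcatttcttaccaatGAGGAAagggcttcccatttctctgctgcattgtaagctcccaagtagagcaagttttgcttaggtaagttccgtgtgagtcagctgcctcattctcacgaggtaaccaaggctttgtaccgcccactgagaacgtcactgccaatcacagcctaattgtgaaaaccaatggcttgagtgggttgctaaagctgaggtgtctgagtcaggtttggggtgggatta
C1qb: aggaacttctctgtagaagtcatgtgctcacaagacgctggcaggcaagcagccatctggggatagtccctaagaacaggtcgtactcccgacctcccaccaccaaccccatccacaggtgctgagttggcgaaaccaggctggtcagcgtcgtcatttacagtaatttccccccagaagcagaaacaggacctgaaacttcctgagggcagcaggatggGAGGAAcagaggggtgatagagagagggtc
C1qc: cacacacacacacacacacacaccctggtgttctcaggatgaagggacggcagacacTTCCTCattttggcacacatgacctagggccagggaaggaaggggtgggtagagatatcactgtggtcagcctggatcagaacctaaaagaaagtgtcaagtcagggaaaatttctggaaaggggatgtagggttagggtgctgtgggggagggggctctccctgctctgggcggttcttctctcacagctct
RefSeq promoters were matched for 6 of the 9 genes, and 5 of these (Cd68, C1qb, C1qc, Mrc1 and Marco) held the motif on either strand, while the Cd163 window held none. Of all 32851 windows of this length, 23.3% held it. The motif's first base lay at positions -225, -30 and -193 from the start site in Cd68, C1qb and C1qc. Spi1 itself had values of 6.31, 5.43 and 7.31 with MPN marrow against 4.91, a log2 difference of 1.44 (SE 0.85) with the control under the limit, and was looked at because of the motif, after its values were known. A match is a run of letters and does not show binding.

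Mrc1, Cd163 and Marco are scavenger and clearance receptors of resident macrophages, and none was above the limit on any array. Mrc1, the mannose receptor CD206, which sinusoidal endothelium also carries, was at 3.98, 3.80 and 3.82 in MPN mice against 3.63. Cd163, which takes up haemoglobin bound to haptoglobin, was at 4.25, 4.32 and 4.18 against 4.27, with the control inside the MPN range. Marco, a receptor with a collagen-like stalk that binds bacteria, was at 4.97, 4.96 and 4.86 against 4.84. The differences were 0.24 (SE 0.17), -0.02 (SE 0.16) and 0.09 (SE 0.15), with 95% intervals of -0.27 to 0.74, -0.49 to 0.45 and -0.37 to 0.55. RMA compresses differences near background, so these narrow intervals describe the array values and bound a change in RNA only loosely. Mrc1 changed sign to -0.02 and Marco to -0.17 with the arrays aligned on the receptor genes, and Marco to -0.11 after cyclic loess. Cd163 moved to -0.28 and -0.24 under the same alternatives.

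**Figure D2:**
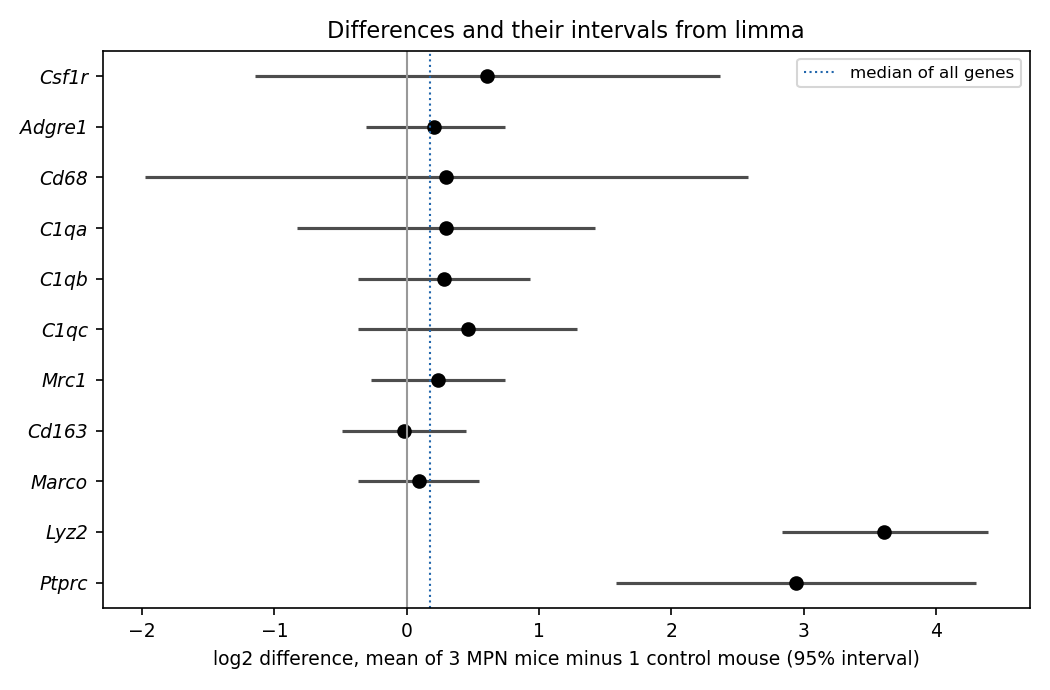
Log2 difference between the mean of the 3 MPN mice and the 1 control mouse (x axis) with its 95% interval from limma, for the 9 macrophage marker genes and, for scale, Lyz2 and Ptprc (y axis). The intervals of all 9 markers include 0 and the median of all genes (0.18, dotted line), and those of Lyz2 (2.84 to 4.39) and Ptprc (1.58 to 4.30) do not.

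Csf1 and Il34, the ligands of Csf1r, had lower values with MPN marrow. The marrow stromal genes listed had a median difference of -3.22 on the same arrays. The part of stromal RNA in the ligand values was not tested. Csf1 was at 7.82, 4.74 and 7.02 with MPN marrow, under the limit in MPN mouse 2, and at 9.37 in the control. All MPN mice lay below the control, but they differed widely, and the log2 difference of -2.84 (SE 1.42, 95% interval -7.09 to 1.40) had limma adjusted p = 0.458. Il34 was at 6.33, 6.26 and 5.89 against 7.13, a difference of -0.97 (SE 0.25, 95% interval -1.72 to -0.21, adjusted p = 0.312). In the list of Csf1r ligands and signalling genes, 0 of 13 measured genes passed the adjusted threshold, with a median difference of 0.67. The list also holds Csf2 and receptor genes for other factors (Csf2ra, Csf2rb, Csf2rb2, Csf3r and Tnfrsf11a). Its median is therefore not that of Csf1r partners alone. At least 2-fold from the control on each MPN array, 2 were higher (Csf2ra and Csf3r, receptor chains for GM-CSF and G-CSF) and 1 was lower (Csf1). Over all genes these shares were 1.13% and 5.78%. Csf2ra was at 8.12, 8.22 and 7.69 against 6.19, and Csf3r, which neutrophils carry, at 6.04, 5.93 and 6.62 against 4.84. Where every array of a group was under the limit, and so not above background, a bound is given. It is the distance of the other group's mean from the limit, and it leaves out the spread between mice. By this bound, the MPN mean of Csf3r was at least 1.99-fold above the control.

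Of 12 measured genes listed as partners of C1q in the classical pathway, 0 passed the adjusted threshold. The list also holds Masp1 and Masp2, proteases of the lectin pathway, and Masp2 was among those above the control. On all 3 MPN arrays 6 were below the control and 2 above, beside 21.1% and 46.8% of all genes, and the median difference was -0.43. At least 2-fold lower on each MPN array, as were 5.78% of all genes, were C1s1, a protease that C1q activates, and C4b, a substrate of it that was named after its values were seen (-2.06). Without MPN mouse 3 the count was 4, while over all 19938 genes it rose from 1153 to 1756. C1s1 was at 4.28, 3.00 and 4.30 against 6.69, all MPN arrays under the limit, and so at least 2.79-fold lower with MPN marrow. Serping1, the inhibitor of the C1 proteases, was at 9.29, 5.39 and 7.10 against 10.27, a difference of -3.01 (SE 1.74). Cd55, a regulator that speeds decay of complement convertases, was at 3.24, 2.76 and 6.53 against 6.40, with MPN mouse 3 at the control's level. Stromal cells also make these proteases and inhibitors, and the marrow stromal genes listed (Kitl, Lepr and others) had a median difference of -3.22 on the same arrays, with 16 of 17 at least 2-fold lower on each. The part of stromal RNA in the complement values was not tested.

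**Figure D3:**
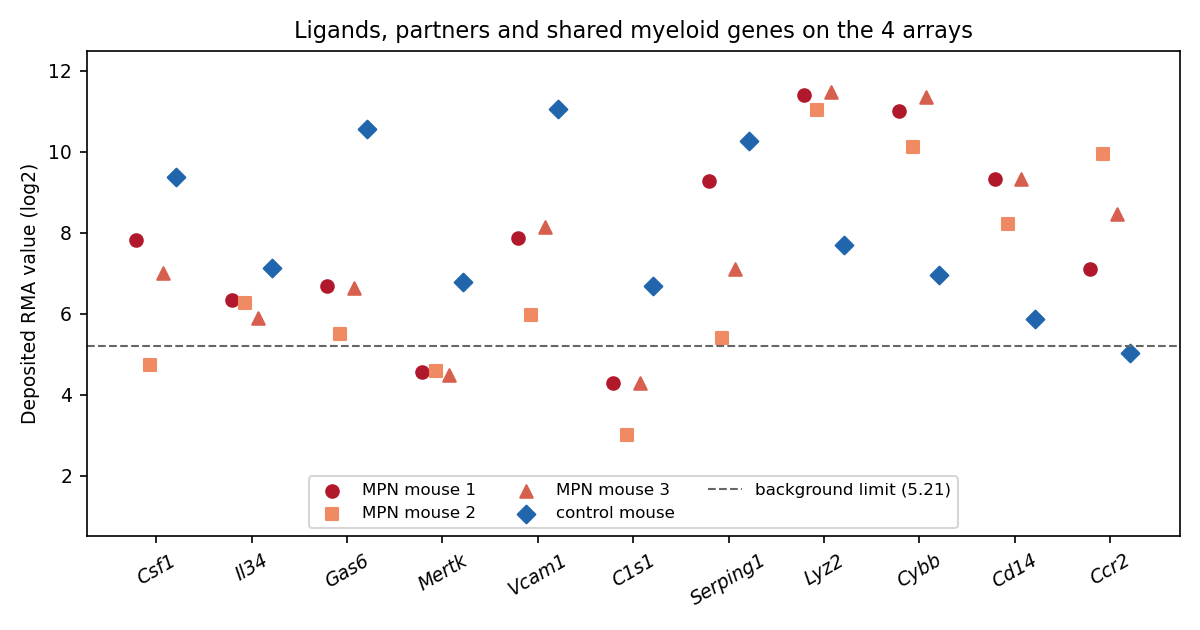
Deposited RMA value (log2, y axis) of ligands, partners and other myeloid genes (x axis) on the 3 MPN arrays and the control array, 1 point per array, with the background limit of 5.21 dashed. Csf1, Il34, Gas6, Mertk, Vcam1, C1s1 and Serping1 are highest on the control array, and Lyz2, Cybb, Cd14 and Ccr2 are lowest there.

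Of 22 measured genes of resident macrophages and of the erythroblastic island, 13 lay above background in either group, 0 passed the adjusted threshold, and the median difference was 0.25. On all 3 MPN arrays 13 lay above the control and 6 below, beside 46.8% and 21.1% of all genes. On each MPN array 0 were at least 2-fold higher and 4 lower, beside 1.13% and 5.78% of all genes. The 4 were Gas6, Vcam1, Mertk and, named after its values were seen, the iron exporter Slc40a1 (-2.10). Mertk, a receptor for the uptake of dying cells, was at 4.55, 4.58 and 4.48 against 6.79, a difference of -2.25 (SE 0.15, limma adjusted p = 0.0871). All 3 MPN values were under the limit, so Mertk was at least 3-fold lower with MPN marrow, and the SE describes array values there. It passed after cyclic loess (adjusted p = 0.048), with the arrays aligned on the receptor genes (0.046) and with a trended, robust variance prior (0.0352). Gas6, the ligand that bridges Mertk to dying cells and is also made by stroma, was at 6.68, 5.51 and 6.64 against 10.56 (-4.29, SE 0.61). Vcam1, an adhesion molecule that both island macrophages and stromal cells carry, was at 7.87, 5.97 and 8.15 against 11.06. Siglec1, the sialic acid receptor CD169 of marrow macrophages, was at 5.90, 5.43 and 5.43 against 5.29, and Spic, the factor of iron-recycling macrophages, at 3.88, 3.74 and 3.72 against 3.52. These last values were picked as background to the marker genes after they were known. Siglec1 was just above the limit on every array, and Spic was on none. Against each array's own limit Siglec1 was above on 3.

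Several genes that macrophages share with other myeloid cells had higher values with MPN marrow. In the list of further mononuclear phagocyte genes 37 were measured, 31 lay above background in either group, and 0 passed the adjusted threshold. At least 2-fold higher on each MPN array were 13, beside 0 of the 9 markers and 1.13% of all genes. At least 2-fold lower were 0, beside 5.78% of all genes. With the arrays aligned on the receptor genes there were 9 higher and 1 lower, beside 153 and 1561 of all 19938 genes. Lyz2, the lysozyme of neutrophils and macrophages alike, was at 11.41, 11.03 and 11.49 against 7.70, a 12.2-fold difference (log2 3.61, SE 0.26, limma adjusted p = 0.0871). Cybb, the catalytic subunit of the phagocyte oxidase, was at 11.00, 10.12 and 11.36 against 6.95, and Cd14, the co-receptor for endotoxin, at 9.32, 8.23 and 9.32 against 5.88. All 3 MPN arrays stood well apart from the control for each of these genes. The other 10, named after their values were seen, were Tyrobp, Fcer1g, Fcgr3, Ctss, Lgals3, Itgam, Laptm5, Clec4a2, Clec12a and Pld4. Several of the 13, among them Itgam, Tyrobp, Fcer1g and Clec12a, are known in neutrophils or monocytes as well as in macrophages. Apoe, a lipid carrier of macrophages and stroma that was also named after its values were seen, was lower with MPN marrow, at 9.29, 7.80 and 7.54 against 10.20.

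The lists of neighbouring cell types set these values in context. Neutrophil genes had a median difference of 2.74, with 15 of 20 at least 2-fold higher on each MPN array, and pan-leukocyte genes one of 2.14, with 9 of 16, or 14 without MPN mouse 2. Over all genes 225 (1.13%) were at least 2-fold higher on each MPN array. Leaving out a mouse eases that rule for every gene. The count over all genes was then 378 without MPN mouse 1 and 373 without MPN mouse 2. The mean level of the 20 neutrophil genes ran from 9.15 to 10.25 on the MPN arrays against 7.02 on the control array. That of the 9 macrophage markers ran from 4.78 to 5.02 against 4.65. Monocyte genes had a median of 0.62 over 16 measured, and 3 (Ccr2, Ctsg and Ms4a3) were at least 2-fold higher on each MPN array, or 5 without MPN mouse 1. The lists share some genes, so they are not independent. Ctsg and Csf3r are also neutrophil genes here, Laptm5 is also a pan-leukocyte gene, and the marker Csf1r is among the 16. Ccr2, the chemokine receptor of inflammatory monocytes, was at 7.10, 9.96 and 8.46 against 5.02, and with the control under the limit at least 9.86-fold higher with MPN marrow. Ctsg and Ms4a3, which mark granulocyte and monocyte precursors, were higher by 3.04 (SE 0.44) and 2.91 (SE 0.88). None of the 3 passed the test, with limma adjusted p of 0.416, 0.154 and 0.364.

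Dendritic cell genes had a median of 0.34 over 18 measured, with 0 at least 2-fold higher on each array (2 without MPN mouse 1) and 1 lower, the transcription factor Tcf4 (-1.48, SE 0.22). The shares of all genes 2-fold higher and lower on each MPN array were 1.13% and 5.78%. The count of all genes 2-fold higher rose from 225 to 378 without MPN mouse 1 and to 373 without MPN mouse 2. The 4 listed genes of class II antigen presentation, set together after their values were seen, did not share a pattern. H2-Ab1 was at 5.47, 7.50 and 7.10 against 4.58, and Cd74 at 4.51, 8.60 and 6.11 against 4.31. H2-Eb1 was even across the MPN mice, at 6.25, 6.41 and 6.08 against 5.65, and H2-Aa was at 4.64, 4.33 and 5.83 against 4.64. Of 14 osteoclast genes, which mark a related lineage that also needs Csf1, 0 were 2-fold higher on each MPN array. Without MPN mouse 2 there was 1, Mmp9, at 7.21, 5.50 and 8.77 against 5.50, which is also in the neutrophil list. The median of the 14 was 0.35, and 1 was 2-fold lower on each MPN array. That one was Ctsk, the collagen-degrading protease, at 4.93, 4.65 and 4.53 against 8.19 (-3.49, SE 0.23, limma adjusted p = 0.0871), which stromal and bone-forming cells can express too. All 3 MPN values were under the limit, so Ctsk was at least 7.92-fold lower with MPN marrow. It passed under the same 3 alternatives as Mertk, at 0.048, 0.046 and 0.0313.

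Among further scavenger and clearance receptors, 19 measured genes had a median of 0.06, and 0 passed the adjusted threshold. On each MPN array 2 were at least 2-fold higher and 4 lower, beside 1.13% and 5.78% of all genes. The 2 higher were Olr1, a receptor for oxidised lipoprotein, at 7.02, 5.50 and 7.86 against 4.12, and Cd300lf (2.47). With the control under the limit, the bounds from the MPN means were 3-fold and 3.19-fold. They leave out the spread between mice, and on MPN mouse 2 Olr1 was at 5.50 and Cd300lf at 6.10. The 4 lower were Colec12, Lrp1 (-1.70), Scara3 (-1.58) and Scarb2 (-1.30), and all but Olr1 and Colec12 were named after their values were seen. Colec12, a collectin of stroma and endothelium, was at 5.29, 5.74 and 6.52 against 9.57. Clec7a, the beta-glucan receptor dectin-1, was at 5.38, 8.72 and 7.40 against 4.69 and was 2-fold higher in only MPN mice 2 and 3. Msr1, the class A receptor closest in kind to Marco and picked for that after its values were known, stayed between 3.30 and 3.39 on all 4 arrays.

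**Figure D4:**
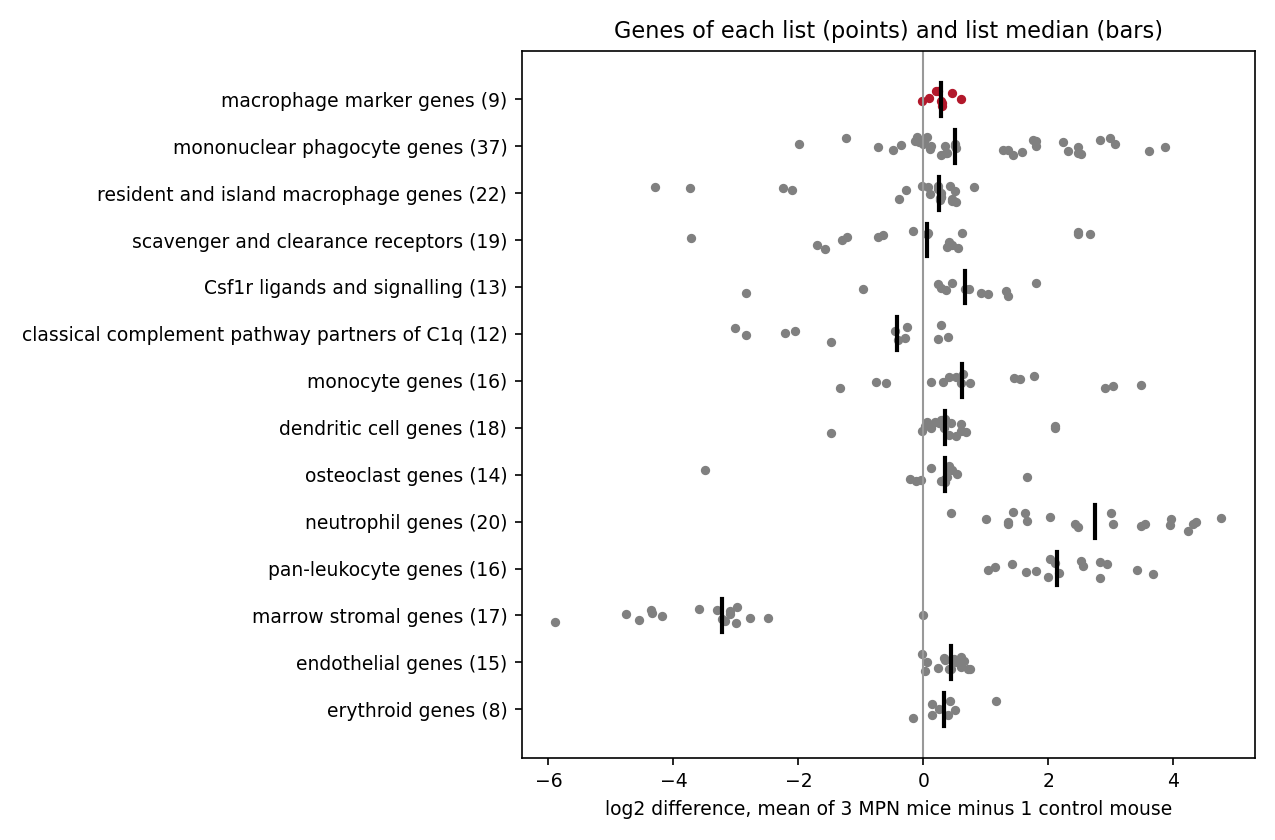
Log2 difference between the mean of the 3 MPN mice and the control mouse (x axis) for each measured gene (points) of the macrophage marker genes (red) and 13 other lists (grey), with the number of genes in brackets and the median of each list as a black bar. The macrophage markers lie between -0.02 and 0.61, and the medians of the neutrophil and marrow stromal lists are 2.74 and -3.22.

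The array on which a marker was highest varied about as over all genes. Among the MPN arrays, 33.3%, 44.4% and 22.2% of the 9 markers were highest on those of MPN mice 1, 2 and 3, beside 37.7%, 38.4% and 20.6% of all genes. Csf1r and Cd68 were highest on the array of MPN mouse 3. For markers under the limit the order of the arrays rests on small gaps, such as 4.97 against 4.96 for Marco. Of the 37 further mononuclear phagocyte genes, 59.5% were highest on MPN mouse 3 among the MPN arrays, as were 75% of the neutrophil genes. Of the 22 resident macrophage genes 4.55% were highest there.

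Of the genes of the sort, Pecam1, which encodes CD31, had values of 5.36, 6.04 and 5.31 with MPN marrow against 4.97, and 15 endothelial genes had a median of 0.45 with 0 at least 2-fold from the control on each array. Nes, whose promoter drives the reporter, was at 4.56, 3.92 and 4.26 against 4.26, under the limit on every array. Of the 8 measured erythroid genes 0 were 2-fold from the control on each array, and their median was 0.33. Over all genes 1.13% were at least 2-fold higher on each MPN array and 5.78% lower.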

How the data were processed

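The authors used RMA to make the deposited log2 values, per the submitters' processing notes. For its version, the probe set definitions and the genome build, the sources used here say nothing. RMA corrects background, brings arrays to one distribution and compresses low differences. Values ran from 1.55 to 13.63, and arrays have no read depth, so their number limits precision.

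Of 35556 probe sets, 21789 had 1 gene symbol, 1621 several, and 12146 are unnamed here. The probe set with the highest mean stood for each of 19938 genes, and each marker had 1. The comparison used limma 3.58.1 under R 4.3.3 (lmFit, eBayes, two-sided, Benjamini-Hochberg over all genes, threshold 0.05), checked on simulated data. The fit had 2 residual degrees of freedom, and the single control array was taken to have the spread of the MPN mice. SE and 95% intervals come from this fit. Labels name each array as a mouse and say nothing more on how samples were separated.

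The members and the 13 lists were chosen with earlier results of these data known. Of each list, the 3 genes with the largest difference were open to naming, beside Ptprc, Pecam1, Nes, Csf1 and Il34. Likeness of pattern was the root mean square distance between centred values. The alternatives left out each MPN mouse, averaged probe sets, kept genes above background, rescaled the arrays in 4 ways, or changed the variance prior.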

Additional observations from a re-analysis of the deposited data

How the results depend on the processing

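The count of macrophage markers at least 2-fold higher, or lower, on each MPN array was 0 under every alternative run, and no marker passed limma's adjusted threshold. In 7 of the 10 alternatives no gene at all passed, so the test there says nothing of stability. In the 3 where genes did, the smallest adjusted p of a marker was 0.471. The median difference of the markers, 0.28, was 0.0949 after cyclic loess, 0.0229 with the arrays aligned on the median of the receptor genes, 0.235 on that of all genes, and 0.295 over the 3 markers above background, of which 2 (C1qa and C1qb) passed that filter through their MPN mean alone, which favours a positive difference. Leaving out each MPN mouse gave 0.259 to 0.332. The median over all genes moved from 0.18 to 0.01 with loess and to -0.08 with the receptor alignment. Of 63 marker values under the alternatives that can alter a difference, 6 changed sign: with the receptor alignment Adgre1 (-0.04), Mrc1 (-0.02) and Marco (-0.17), with loess Marco (-0.11), and without MPN mouse 3 Cd68 (-0.17, and up to 0.64 without another mouse) and Cd163 (0.01, and down to -0.05 without another). Cd163 was -0.28 with the receptor alignment and -0.24 with loess. The count of all genes past the adjusted threshold was 97 with loess, 153 with the receptor alignment and 167 with a trended, robust prior, against 0 as reported (2511 at an unadjusted p under 0.05); the cause was not tested. No paired analysis was possible because the control group has 1 array. Signal near background limits what 8 of the 9 markers can show, since only Cd68 lay above the limit on all arrays.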
